A study of Mus musculus with 8 samples.

Results

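The genes described here are 10 feedback inhibitors of the mitogen-activated protein kinase (MAPK) pathways, 7 dual-specificity phosphatases (*Dusp1*, *Dusp2*, *Dusp4*, *Dusp5*, *Dusp6*, *Dusp10* and *Dusp16*) and 3 Sprouty-family adaptors (*Spry1*, *Spry2* and *Spred1*). They were chosen by gene symbol, and all 10 are among the 13704 genes listed in the WT or KO count table of the study. RNA-seq was performed on Th17 cells, which were generated in culture from naive CD4+ T cells sorted from C57BL/6 mice. The WT library came from wild type mice and the KO library from TRIM28fl/flxCD4cre mice, with 1 library per genotype. In the KO mice, Cre under the *Cd4* promoter removes the loxP-flanked *Trim28* alleles in CD4-expressing cells from the thymus onward, so the gene was lost long before the culture began. Both cultures received TGF-β at 0.5 ng/ml with IL-6 at 20 ng/ml for 3 days and were then re-stimulated with anti-CD3. How long the re-stimulation lasted, the age of these mice and whether animals were pooled are not given in the sources used here. The other 6 of the 8 samples, which are ChIP-seq libraries, were not analysed here.

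MAPK pathways carry signals from the T-cell receptor and from cytokine receptors through chains of kinases that end in ERK, JNK or p38. Dual-specificity phosphatases switch these last kinases off by removing phosphate from both the threonine and the tyrosine of the activation loop. Sprouty and Spred proteins act further up, between the receptor and the Ras-RAF step of the ERK branch. Many of these inhibitors are themselves switched on by the pathway that they restrain, so that their transcripts are often read as a trace of recent MAPK activity.

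The comparison asks how the loss of TRIM28, a chromatin cofactor, goes along with the expression of these inhibitors in Th17 cells. The WT library held 6650066 assigned reads and the KO library 6185108. *Trim28* fell from 674 to 29.1 in counts scaled to a library of 1000000 assigned reads (CPM). Of 5 Th17 marker genes all had reads in both libraries, and *Il17a*, *Il17f* and *Il21* were called lower in KO. All 8 T-cell marker genes had reads in both and 0 of them were called, with a sum of 4260 CPM in WT and 3746 CPM in KO. Of 14 markers of other cells, 6 were listed, among them *Cd8b1* (52 and 27 reads) and *Cd79a* (20 and 8), with a sum of 17.1 CPM in WT and 11.6 CPM in KO. Of the myeloid markers, *Itgam* had 1 read in each library, and *Lyz2*, *Csf1r* and *Adgre1* were not listed in either. The part of these other cells in the results was not tested. Of 5 sex-linked genes, the 4 on the Y chromosome had reads in both libraries and *Xist* is listed in neither. On the Y chromosome, *Uty* (256 and 107 reads) was called lower in KO. *Ddx3y* (730 and 456), *Kdm5d* (374 and 209) and *Eif2s3y* (377 and 459) were not called. With 1 library per genotype no difference below has a replicate check. The 95% intervals are exact and cover counting error only, and the exact binomial test compares the reads of these libraries, not the genotypes. A gene was called when this test gave an adjusted p under 0.05 and the change was at least 2-fold.

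*Dusp6* and *Dusp16* fell in the KO library, and no member was called higher. *Dusp4* stood just short of the 2-fold limit, *Spred1* was 1.59-fold lower, and the remaining 6 genes lay within counting error or close to it. Of the 10 members, 2 were called lower, where 5.53% of all 10881 tested genes were, and 0 were called higher, where 2.57% of all tested genes were. Together the 10 genes took 766 CPM of the WT library and 581 CPM of the KO library, so that the KO sum was 75.9% of that in WT. In bulk RNA, fewer cells that express a gene and less RNA per cell cannot be told apart.

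**Figure D1:**
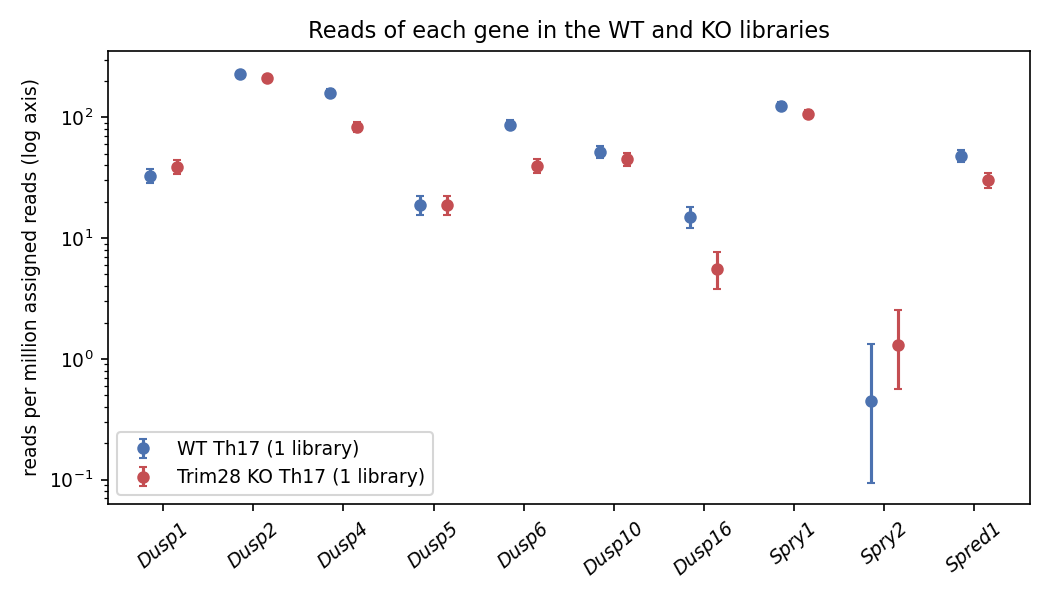
CPM (log axis) of each of the 10 genes in the WT (blue) and KO (red) library, 1 library per genotype; bars are exact Poisson 95% intervals of the count. *Dusp6* (86.9 and 39.6 CPM) and *Dusp16* (14.9 and 5.50 CPM) were called lower in KO, while *Dusp2*, the highest of the 10, is at 228 CPM in WT and 213 CPM in KO.

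*Dusp6* encodes the cytoplasmic phosphatase MKP-3, which acts on ERK almost alone, and lies on chromosome 10 of GRCm38 from 99263231 to 99267489. The WT library held 578 of its reads and KO 245, or 86.9 and 39.6 CPM. The log2 fold change (KO/WT) was -1.13, with an interval from -1.36 to -0.92, a 2.19-fold lower level in KO. Its adjusted p was 2e-25 in the two-sided exact binomial test with Benjamini-Hochberg adjustment over the 10881 genes with at least 10 reads in both libraries together. The upper end of the interval lies above -1, so that a change of less than 2-fold is within counting error, and the same holds for *Dusp16*.

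*Dusp16* encodes MKP-7, a phosphatase of JNK and p38, and lies on chromosome 6 from 134715468 to 134807063. It had only 99 reads in WT and 34 in KO, or 14.9 and 5.50 CPM. The log2 fold change was -1.42 with an interval from -2.04 to -0.86, and the adjusted p was 7.5e-07 in the same exact test. This interval holds the whole of that of *Dusp6*. The closely related *Dusp10* (chromosome 1 from 184034381 to 184075636), whose product MKP-5 also acts on JNK and p38, had 343 reads in WT, 277 in KO and a log2 fold change of -0.20. The interval of *Dusp10*, from -0.44 to 0.03, includes 0 and does not meet that of *Dusp16*. These phosphatases of JNK and p38 thus stood apart from each other in the same pair of libraries.

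The 4 inducible nuclear phosphatases also stood apart from each other. *Dusp4* (MKP-2, chromosome 8 from 34807610 to 34819894), which acts on ERK and JNK in the nucleus, had 1063 reads in WT and 514 in KO, or 160 and 83.1 CPM. Its log2 fold change was -0.94 with an interval from -1.10 to -0.79, that is 1.92-fold lower, at an adjusted p of 2.1e-34 in the exact test. It was therefore not called, although its test rested on more reads than that of *Dusp6*. Correction for transcript length or for GC content put it past the limit, with log2 fold changes of -1.01 under each.

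*Dusp2* (PAC-1, chromosome 2 from 127336159 to 127338377), a phosphatase best known from activated lymphocytes, had 1517 reads in WT and 1317 in KO. Its log2 fold change was -0.10, with a narrow interval from -0.21 to 0.01. *Dusp1* (MKP-1, chromosome 17 from 26505591 to 26508472), an immediate-early gene whose product turns off p38 and JNK as well as ERK, had 219 reads in WT and 241 in KO. Its log2 fold change was 0.24 (interval from -0.03 to 0.51, adjusted p = 0.14 in the exact test). An exon of *Ergic1*, which had 874 and 985 reads, overlaps *Dusp1* on the opposite strand, and whether the counting used strand is not given, so reads of the overlap cannot be told apart. *Dusp5* (chromosome 19 from 53529145 to 53541809), the nuclear phosphatase specific to ERK, had 124 reads in WT and 116 in KO, and its log2 fold change of 0.01 had an interval from -0.37 to 0.39. For *Dusp2* the interval excludes a fall as large as that of *Dusp4*, and so do the intervals of *Dusp1* and *Dusp5*.

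**Figure D2:**
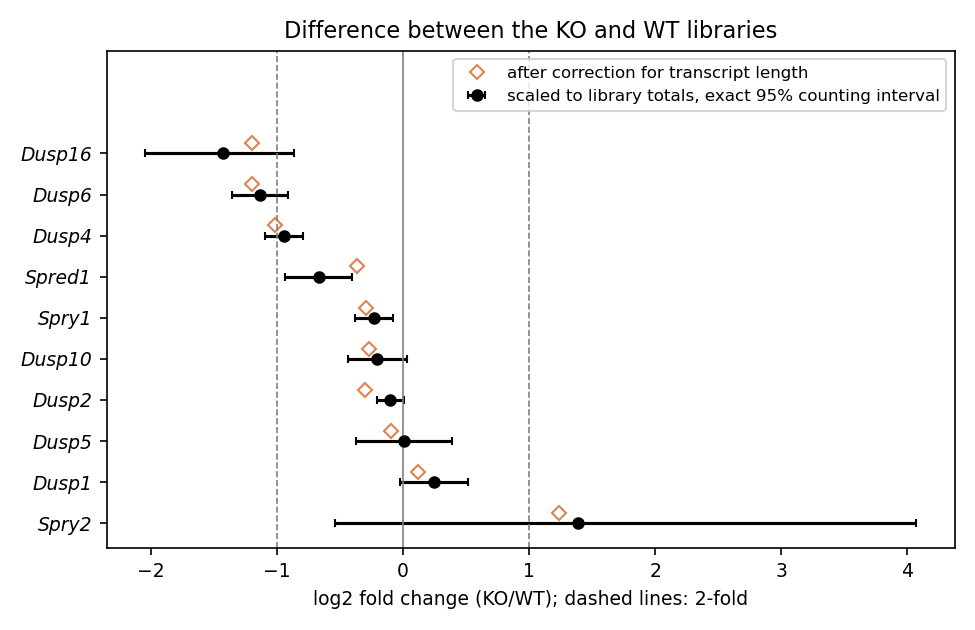
Log2 fold change (KO/WT) of each gene, with the exact 95% counting interval as a bar. Open diamonds give the value after correction for the length of the longest annotated transcript, and dashed lines mark 2-fold. *Dusp16*, *Dusp6* and *Dusp4* lie near or beyond the lower line with either value, *Spred1* moves from -0.67 to -0.37, and the wide bar of *Spry2* rests on 11 reads.

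Of the Sprouty-family adaptors, *Spry1* (chromosome 3 from 37639947 to 37644599), an inhibitor of Ras-ERK signalling downstream of receptors, was the most abundant, with 830 reads in WT and 658 in KO. Its log2 fold change was -0.23 (interval from -0.38 to -0.08, adjusted p = 0.0066 in the exact test), a 1.17-fold difference. *Spry2* (chromosome 14 from 105891947 to 105896819), its close relative, was at the limit of detection with 3 and 8 reads, where the floor of 3 reads corresponds to 0.451 CPM for WT and 0.485 CPM for KO. Its log2 fold change of 1.38 has an interval from -0.54 to 4.07, so no direction can be read from it. Beyond unique assignment to a gene, the rule by which reads were counted is not given. *Mapk14* (a p38 kinase, named after its values were seen) had only 7 reads in each library. The part of the counting in such low values was not tested. *Spred1* (chromosome 2 from 117121071 to 117182279), which brings the Ras GTPase-activating protein neurofibromin to the membrane, had 318 reads in WT and 186 in KO, or 47.8 and 30.1 CPM. Its log2 fold change was -0.67 (interval from -0.94 to -0.40, adjusted p = 2e-06 in the exact test).

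The interval lay wholly below 0 for 5 of the 10 genes (*Dusp4*, *Dusp6*, *Dusp16*, *Spry1* and *Spred1*), as it did for 25% of all tested genes. It lay wholly above 0 for 0 of the 10, against 23.5% of all tested genes. A level at least 1.5-fold lower in KO, with or without the test, was seen for 4 of the 10 (*Dusp4*, *Dusp6*, *Dusp16* and *Spred1*), and for 17.7% of all tested genes without the test. The median log2 fold change of the 10 genes was -0.22, against -0.02 over all genes tested. In edgeR's exact test, run with cultures taken to vary by a coefficient of 0.2, no member (0 of 10) was called. Of all 10881 tested genes only 131 were called lower there, so 0 of 10 does not set the members apart from other genes.

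Levels can be compared between genes only per length, as reads per kilobase of the longest annotated transcript per 1000000 reads (RPKM). In the WT library *Dusp2* stood first at 141 RPKM, followed by *Dusp4* at 58.3, *Spry1* at 45.0 and *Dusp6* at 31.1 RPKM. *Dusp10* (18.5 RPKM) and *Dusp1* (14.2) came next, then *Spred1* (7.95) and *Dusp5* (7.54), whose Poisson intervals overlap, and last *Dusp16* (2.92) and *Spry2* (0.216). No other neighbours in this order had overlapping intervals.

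In the KO library *Dusp2* was again first at 132 RPKM, but *Spry1* (38.4) stood above *Dusp4* (30.3), and *Dusp6* had moved from the fourth to the sixth place. There *Dusp1* (16.9 RPKM), *Dusp10* (16.0) and *Dusp6* (14.2) had overlapping intervals, as did *Dusp16* (1.08) and *Spry2* (0.620), while *Dusp5* (7.58) and *Spred1* (5.0) did not. Within the summed reads of the 10 genes the share of *Dusp2* went from 29.8% to 36.6%, that of *Dusp4* from 20.9% to 14.3% and that of *Dusp6* from 11.3% to 6.81%. The mixture of inhibitors therefore differed between the libraries as well as its sum. With the median length of a gene's annotated transcripts in place of the longest, *Dusp6* took place 3 in WT and place 5 in KO. By that length *Dusp16* (7.77 RPKM) stood above *Dusp5* (7.54) in WT, and *Spred1* (8.07) above *Dusp5* (7.58) in KO, so these orders depend on the transcript assumed.

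Across all genes the fold change fell with transcript length. The median log2 fold change was 0.29 in the shortest of 10 equal groups of tested genes by length and -0.44 in the longest. *Spred1*, with a transcript of 6016 bases, and *Dusp16*, with 5104, lie on the long side, where the trend itself was at -0.30 and -0.22. After the trend was taken off, *Spred1* was at -0.37 and *Dusp16* at -1.20 and still called. The median lengths of their annotated transcripts were shorter, 3728 bases for *Spred1* and 1915 for *Dusp16*. The groups of tested genes that hold those lengths had median log2 fold changes of -0.03 and 0.21. The size of the correction for these genes therefore depends on the transcript assumed. The longest annotated transcripts of *Dusp4*, *Dusp6*, *Dusp10* and *Spry1* are of nearly the same length, from 2740 to 2796 bases. Their log2 fold changes were -0.94, -1.13, -0.20 and -0.23, and the trend at that length was 0.06 to 0.07 for each. After the correction they were -1.01, -1.19, -0.27 and -0.30. The median lengths of the annotated transcripts of these genes, in the same order, were 2740, 1617.5, 1758 and 2481 bases. The likeness in length therefore depends on the transcript assumed. Under this correction *Dusp5* changed sign, from 0.01 to -0.10, within its counting error.

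**Figure D3:**
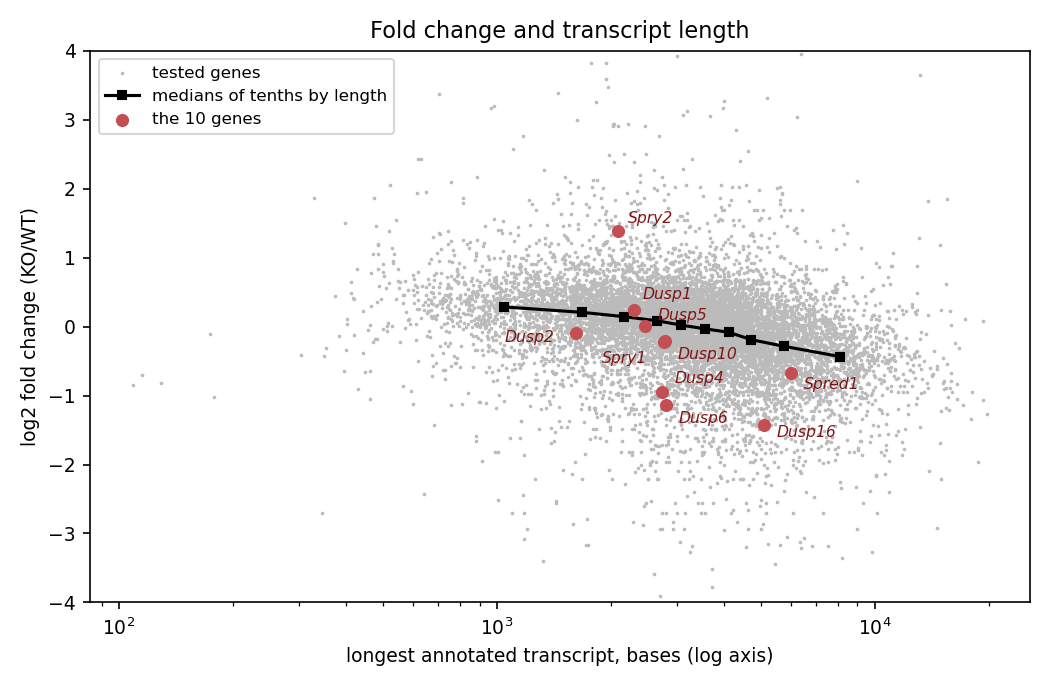
Log2 fold change (KO/WT) of the tested genes (grey) against the length of the longest annotated transcript (log axis), with the medians of 10 equal groups of genes by length (black) and the 10 genes (red); 65 genes longer than 20000 bases or more than 4 from 0 are not drawn. Relative to the trend, *Dusp4* was at -1.01, *Dusp6* at -1.19 and *Spred1* at -0.37.

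To show what the members share at their start sites, the RefSeq promoter windows of GRCm38.p6, from 250 bases before to 50 after the start, were searched on both strands for motifs of factors that act at the end of MAPK and cytokine signalling. These were TGACGTCA (the cAMP response element, CRE), TGACTCA (AP-1), CACGTG (an E-box), TTCNNNGAA (STAT) and the CArG box of serum response factor. Windows were found for 9 of the members, all but *Dusp4*. A match was found for *Dusp1* (a CRE and an E-box), *Dusp2* (an E-box) and *Dusp5* (2 CArG boxes end to end), and none for the other 6. Among all 32851 windows of the table, 1.79% held the CRE, 5.2% the AP-1 motif, 7.15% the E-box, 8.3% the STAT motif and 1.63% the CArG box. A match is only a run of letters and no match says nothing of the factor. The windows of *Dusp1* and *Dusp5* are shown for the matches, and those of *Dusp6* and *Dusp16* because these are the members called lower. Capitals mark the matched motifs, 5′ to 3′ on the strand of the gene. In *Dusp1* (chr17:26508423-26508722, minus strand) the CRE lies 143 to 136 bases before the start and the E-box 126 to 121 bases before it. In *Dusp5* (chr19:53528895-53529194, plus strand) the CArG boxes span 82 to 63 bases before the start. *Dusp6* (chr10:99262981-99263280, plus strand) and *Dusp16* (chr6:134792579-134792878, minus strand, at an annotated start inside the span of the gene) hold no capitals.
Dusp1: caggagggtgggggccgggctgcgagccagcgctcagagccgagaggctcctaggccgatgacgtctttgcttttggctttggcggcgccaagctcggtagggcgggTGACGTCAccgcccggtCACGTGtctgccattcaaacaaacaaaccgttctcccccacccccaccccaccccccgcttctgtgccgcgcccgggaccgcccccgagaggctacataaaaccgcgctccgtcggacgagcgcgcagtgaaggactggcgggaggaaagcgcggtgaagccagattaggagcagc
Dusp5: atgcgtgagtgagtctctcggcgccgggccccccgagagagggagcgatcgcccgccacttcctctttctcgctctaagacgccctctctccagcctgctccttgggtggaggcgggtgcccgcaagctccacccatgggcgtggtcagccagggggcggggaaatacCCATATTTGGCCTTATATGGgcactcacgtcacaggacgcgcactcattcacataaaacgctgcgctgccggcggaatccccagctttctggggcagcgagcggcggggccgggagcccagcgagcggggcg
Dusp6: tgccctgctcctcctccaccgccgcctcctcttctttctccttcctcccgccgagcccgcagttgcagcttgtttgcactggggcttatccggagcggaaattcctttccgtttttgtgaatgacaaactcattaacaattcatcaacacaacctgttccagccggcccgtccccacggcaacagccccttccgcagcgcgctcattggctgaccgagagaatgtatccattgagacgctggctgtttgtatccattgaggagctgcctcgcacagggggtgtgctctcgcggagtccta
Dusp16: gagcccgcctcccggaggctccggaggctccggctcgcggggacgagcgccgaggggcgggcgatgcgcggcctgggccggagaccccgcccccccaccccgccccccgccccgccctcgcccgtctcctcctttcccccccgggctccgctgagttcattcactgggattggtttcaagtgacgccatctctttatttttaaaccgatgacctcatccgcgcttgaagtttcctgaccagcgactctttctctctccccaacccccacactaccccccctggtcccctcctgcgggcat

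The windows with a match belong to genes whose log2 fold changes were 0.24 (*Dusp1*), -0.10 (*Dusp2*) and 0.01 (*Dusp5*). Those without one ranged from -1.42 (*Dusp16*) to 1.38 (*Spry2*). This sets side by side the letters and the values of 9 genes and was not tested. All 9 windows were richer in G and C than the median window of the table (52.7%), from 57.3% in *Dusp6* to 72.3% in *Spred1*.

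Other genes of the same pathways were described by lists. Of 13 further dual-specificity phosphatase genes, 10 had enough reads to be tested and 0 were called in either direction, with a median log2 fold change of 0.24, which was 0.11 with at least 10 reads in each library and 0.13 after the length correction. After the length correction 1 of them, *Dusp19* (100 and 48 reads), was called lower at -1.11. *Dusp7*, whose product is like that of *Dusp6* a cytoplasmic phosphatase of ERK, had 541 reads in WT and 544 in KO, which is 0.11 on the log2 scale (interval from -0.06 to 0.29), apart from the -1.13 of *Dusp6*. *Dusp11*, which acts on RNA ends, had the most reads of this list (1984 and 1429) and a log2 fold change of -0.37, or -0.04 after the length correction. The difference between *Dusp6* and *Dusp7* lies beyond the counting error of both.

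Of the 4 other Sprouty and Spred genes, 3 were tested and 1 was called lower. This was *Spred3* with 420 reads in WT and 82 in KO, which is -2.25 on the log2 scale (interval from -2.61 to -1.91), and -2.16 after the length correction. Its call held in edgeR's exact test at a variation of 0.2, where none of the 10 members and no other gene of the pathway lists was called, and was lost at 0.4. *Ggn*, which overlaps *Spred3* on the opposite strand, had 38 and 17 reads. *Spred2*, named after its values were seen, had 480 reads in WT, 244 in KO and was at -0.87 on the log2 scale (interval from -1.10 to -0.65). The 3 Spred genes together took 183 CPM in WT and 82.8 CPM in KO, or 45.2% of the WT sum, without correction for length. Of these sums *Spred3* alone took 63.2 CPM in WT and 13.3 CPM in KO. After the length correction, which used the longest annotated transcript, *Spred1* was at -0.37 and *Spred2* at -0.73.

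Of 15 other inhibitors of Ras-ERK signalling, 14 were tested and 1 was called lower, with a median of -0.29. This was *Rasa1*, a Ras GTPase-activating protein, with 1544 reads in WT, 598 in KO and a log2 fold change of -1.26. *Nf1*, the gene of neurofibromin, which the Spred proteins recruit, had 322 reads in WT, 165 in KO and a log2 fold change of -0.86, or -0.31 after the length correction, and is named here after its values were seen.

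Of 19 genes of the Ras-ERK core, 17 were tested and 1 was called lower, with a median of -0.11 that turned to 0.04 after the length correction. *Rasgrp1*, which loads Ras with GTP below the T-cell receptor, had 786 reads in WT, 353 in KO and a log2 fold change of -1.05, and lost its call after the length correction at -0.81. *Mapk3* (ERK1), the gene of a kinase that the product of *Dusp6* restrains, named after its values were seen, had 1110 reads in WT, 1282 in KO and a log2 fold change of 0.31. Of 21 genes of the JNK and p38 branch, 18 were tested, 0 were called lower and 2 higher, with a median of 0.08. The genes called higher were *Gadd45b*, an activator of the p38 kinase cascade (62 and 119 reads, log2 fold change 1.04, or 0.81 and not called after the length correction), and *Mapk12* (8 and 24 reads, 1.63). With any of the other 3 scalings 3 genes were called higher, *Gadd45g* being added (155 and 288 reads, just under 2-fold with the totals, named after its values were seen), and with a pseudocount of 5, at least 10 reads in each library, or the length or GC correction 1 was.

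Of 23 early response genes and their regulators, which lie downstream of ERK, 21 were tested, 2 were called lower and 2 higher, with a median of 0.10. The genes called lower were *Egr3* (350 and 156 reads, log2 fold change -1.06, or -0.98 and not called after the length correction) and *Elk4* (375 and 144 reads, -1.27), both transcription factors of the response to ERK. Those called higher were *Etv4* (14 and 46 reads, 1.79) and *Fosb* (15 and 31 reads, 1.13), which rested on few reads. *Egr1* (1395 and 931 reads, log2 fold change -0.48) and *Jun* (608 and 818 reads, 0.53) were named after their values were seen. Of the 21 tested genes, 8 had a negative and 13 a positive log2 fold change. The other 17 tested genes of the list were not called, where 5.53% of all tested genes were called lower and 2.57% higher. *Myc*, *Jund*, *Hras* and *Mapk9* are not listed in either table and were not analysed here.

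**Figure D4:**
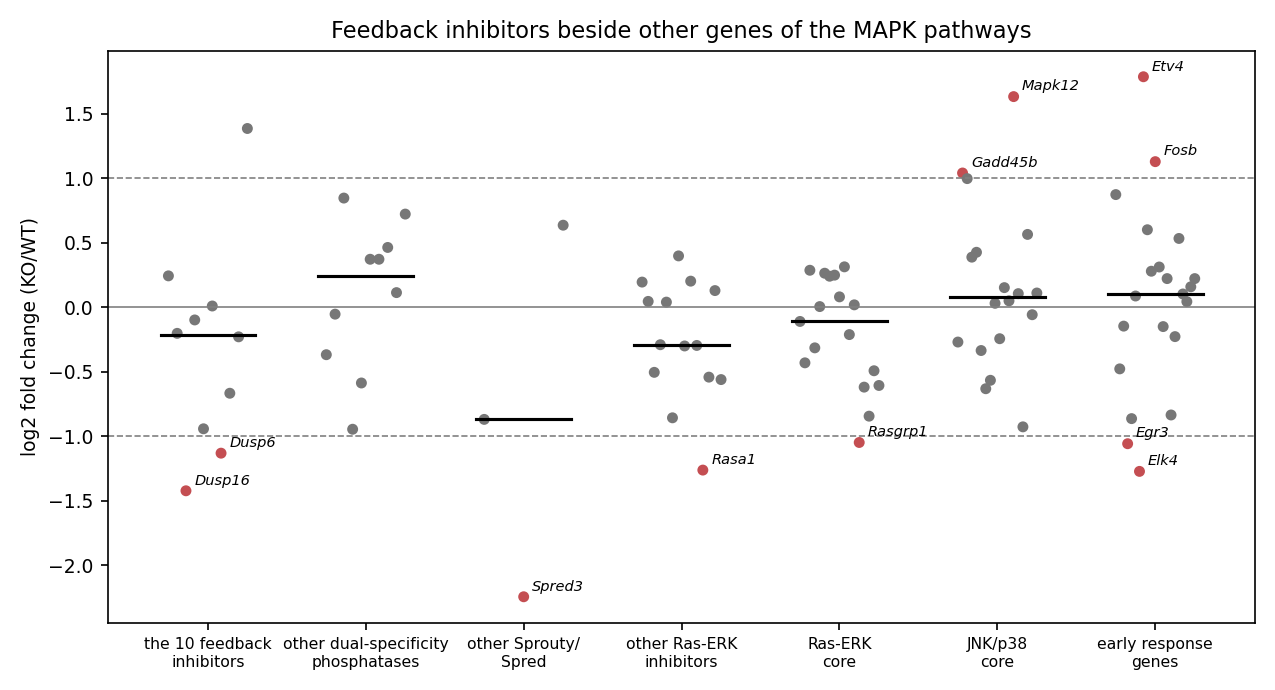
Log2 fold change (KO/WT) of every tested gene of the 10 inhibitors and of 6 lists of MAPK pathway genes; red points are called genes, black lines the medians, dashed lines 2-fold. Called lower were 2 of the 10 inhibitors and 1 gene each of the other Sprouty/Spred, other Ras-ERK inhibitor and Ras-ERK core lists. In the JNK and p38 branch 2 genes were called higher, and the early response genes held 2 in each direction. Over all tested genes 5.53% were called lower and 2.57% higher. *Rasgrp1*, *Gadd45b* and *Egr3* lost their calls after the length correction, and *Mapk12* had 8 and 24 reads.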

How the data were processed

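RNA-seq was done on 1 WT and 1 *Trim28* KO Th17 library. According to the methods of the study, reads were mapped to mm10 with SOAP2. The submitters' processing notes also name HTSeq, with no role given, and Bowtie, which the methods of the study give for mapping ChIP-seq reads. The authors deposited, as raw counts, how many reads were uniquely assigned to each gene, and a gene listed in only 1 table was given 0 reads in the other. The annotation and the use of strand are not given in the sources used here.

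From these counts, log2 fold changes were computed relative to the library totals of 6650066 and 6185108 with a pseudocount of 0.5. The reads of all 10881 genes with 10 or more reads in total entered a two-sided exact binomial test with Benjamini-Hochberg adjustment (SciPy 1.17.1, Python 3.11.15), which compares libraries only. Calls required an adjusted p under 0.05 and 2-fold, the limits of the study. EdgeR's quasi-likelihood test cannot be run with 1 library per group, as no residual degrees of freedom remain. Fold change intervals are Clopper-Pearson and level intervals Poisson, both at 95%. Positions came from RefSeq, and lengths and GC content from GENCODE M21, both of GRCm38. Lengths were found for 99.2% of tested genes. Alternatives were TMM and exact tests of edgeR 4.0.16 (R 4.3.3), DESeq2 1.42.0 size factors, scaling to the upper quartile, a pseudocount of 5, other filters, loess corrections (span 0.3, statsmodels 0.14.6) for length and GC content, and a 1.5-fold limit. The calculations were tested on simulated data.

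The members and gene lists were chosen with earlier results of these data known. The named genes were the members, *Trim28*, the markers and, from each pathway list, up to 4 called genes with at least 50 reads and the largest changes, or the 2 with the most reads where none was called. Other genes are marked as named after their values were seen, or stand in a count of called genes. Some genes of the lists are not reported here.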

Additional observations from a re-analysis of the deposited data

How the results depend on the processing

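Settings were varied 1 at a time. The number of members called lower (2) was 0 in edgeR's exact test when cultures were taken to vary by a coefficient of 0.2, also 0 with 0.4, and 4 at a limit of 1.5-fold. Over all genes, 602 were called lower and 280 higher, and these counts were 389 and 184 with at least 10 reads in each library, 131 and 65 at a variation of 0.2, 9 and 7 at 0.4, and 1248 and 764 at 1.5-fold. The filter tests fewer genes and the lower fold limit admits smaller changes, while the assumed variation makes each test stricter by construction. Of 109 values of the members under the 11 alternatives, 99 kept direction and call, 4 gained a call (*Dusp4* with the length and GC corrections and at 1.5-fold, *Spred1* at 1.5-fold), 4 lost one (*Dusp6* and *Dusp16* at each assumed variation) and 2 changed sign, those of *Dusp5* with the length correction (-0.098) and the GC correction (-0.065). Other scalings moved every log2 fold change by at most 0.02. At this depth no direction can be given for *Spry2*. No paired analysis was possible because there is 1 library per genotype.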
